A study of Mus musculus with 12 samples.

Results

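Kinesins are the microtubule motors that build the mitotic spindle and carry cargo along axons and cilia, and their messenger RNAs were followed here through total and polysome mRNA of mouse cortical progenitor cultures. Members were all rows of the deposited gene table whose symbol is Kif or Kifc followed by a number, that reached 1 on the deposited scale in 3 or more of the 12 libraries. Of 42 such rows, 39 met this rule, among 20240 genes that met the same filter and 53351 rows in all. By known role, 13 are mitotic kinesins, 17 transport kinesins, 6 kinesins of cilia and centrioles, and 3 others. Kif12 and Kif2b were listed at 0 in every library, and Kif28 reached 5.07 on the deposited scale and passed 1 in 1 library only. Just inside the rule were Kif9, Kif19a, Kif17 and Kif6, whose highest deposited values were 10.85, 11.43, 17.55 and 18.09.

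Cortical cells were taken from wild type mouse embryos at E13.5, cultured overnight with the growth factors bFGF and EGF, and given either the solvent DMSO or 250 nM Torin1 for 2 h. Torin1 blocks the kinase mTOR in both of its complexes. All cultures then received 100 ug/ml cycloheximide for 5 min, which holds ribosomes on their mRNA, and 10% of each lysate was kept as total mRNA while the rest was run on a sucrose gradient to collect mRNA with more than 3 ribosomes, called polysome mRNA below. Total and polysome mRNA of a treatment therefore come from the same lysates, but the labels do not say whether equal replicate numbers mark the same lysate, and the fit treats the 12 libraries as independent. The 4 groups, total DMSO, total Torin1, polysome DMSO and polysome Torin1, hold 3 biological replicates each. The labels do not say whether replicates came from separate litters, so p-values measure the spread between these samples, which may be partly technical.

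Values are given in scaled parts-per-million (ppm), that is, the share of a library's summed deposited values after scaling, and folds are log2 differences with their standard error (SE). The sources used here do not say whether values were divided by gene length, so a level of one gene is not set against that of another. A value is a share of its own library, and how much mRNA the polysomes held in all is not known from it. Column totals ran from 14300000 to 19200000 deposited units, and the depth in reads is unknown. One library stood apart in a structural RNA: Rn7sk was at 2073 ppm in total Torin1 replicate 2 and at 38.9 to 184 ppm in the other total libraries. Progenitor markers such as Sox2 (88.6 to 128 ppm) and neuron markers such as Tubb3 (894 to 1440 ppm) and Neurod6 (457 to 717 ppm) were present in every library, so cultures labelled as progenitors also held neuronal mRNA. Erythroid mRNA was present too (Hba-a1 at 578 to 864 ppm), and of the 5 microglial markers only P2ry12 was at 0 in any library (1 library), with Tyrobp the highest at 4.07 to 16.5 ppm. In mixed cultures, fewer cells of a type and less mRNA per cell cannot be told apart.

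Kinesins share a motor domain that turns ATP hydrolysis into steps along microtubules or into disassembly of their ends. In dividing cortical progenitors, mitotic kinesins separate the spindle poles, move chromosomes and complete cytokinesis, and their genes are typically switched on late in the cell cycle. Transport kinesins are also made in cells that do not divide, with several enriched in neurons, where they carry vesicles, mitochondria and mRNA outwards from the cell body.

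The genes of the mitotic motors share letters around their annotated start that the transport motors mostly lack, and these are shown first because the mitotic and transport groups are compared throughout. In windows from 100 bases before to 50 bases after the RefSeq start (GRCm38.p6), searched on both strands, the cell cycle homology region (CHR) letters TTTGAA were found in 9 of the 12 mitotic kinesins with a start in the RefSeq table, which is 75%. The same letters were in 1 of 11 transport kinesins (9.09%, Kif1a) in 1 of 5 cilium kinesins (Kif27), in 1 of 3 others (Kif26b) and in 793 of 13025 tested genes (6.09%). The letters CCAAT were in 8 of 12 mitotic kinesins (66.7%), 3 of 11 transport kinesins (27.3%) and 28.5% of tested genes. Both were in 7 of 12 mitotic kinesins, in none of the 11 transport kinesins and in 1.79% of tested genes. In all, 31 of the 39 members were matched to a start. For mitotic kinesins holding both motifs, 6 of the 7 stretches are printed 5′ to 3′ on the gene's strand, each credited to RefSeq, with both motifs in capitals in either orientation. On the opposite strand the CHR letters read TTCAAA, and the CCAAT letters read ATTGG.
Kif11 (chr19:37376329-37376376, plus strand): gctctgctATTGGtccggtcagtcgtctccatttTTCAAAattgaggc
Kif18b (chr11:102925108-102925185, minus strand): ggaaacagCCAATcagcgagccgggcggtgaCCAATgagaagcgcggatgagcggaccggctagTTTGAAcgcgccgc
Kif22 (chr7:127042424-127042482, minus strand): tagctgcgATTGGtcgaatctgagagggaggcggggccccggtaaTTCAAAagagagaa
Kif23 (chr9:61946784-61946814, minus strand): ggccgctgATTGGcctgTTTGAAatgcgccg
Kif4 (chrX:100626052-100626089, plus strand): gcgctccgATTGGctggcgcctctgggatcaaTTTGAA
Kifc1 (chr17:33890619-33890715, minus strand): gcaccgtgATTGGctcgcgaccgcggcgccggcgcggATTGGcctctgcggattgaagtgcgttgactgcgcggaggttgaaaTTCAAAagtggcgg

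The motifs do not overlap in these stretches. Kif11 holds its CHR letters 26 bases after its CCAAT letters, counted from first base to first base, Kif4 at 24 and Kif22 at 37, while Kif23 has the closest pair at 9. Kifc1 has its CCAAT letters 75 and 46 bases before the CHR letters, and so does Kifc5b, the seventh of the group. Kifc1 also holds CCAAT letters 23 bases after the CHR letters, past the printed stretch, which the window of Kifc5b does not. Kifc5b is a near-identical copy of Kifc1, so reads of the pair can be shared between them and both are reported as uncertain. The motif shares of the mitotic kinesins count these copies as separate genes, so they are not independent cases there. Of the mitotic kinesins with a matched start, Kif14, Kif18a and Kif2c lack the CHR letters in this window, and Kif15 and Kif20b hold them without CCAAT. A list of 26 proteins that work with the mitotic motors (kinetochore, spindle and cytokinesis genes) showed a like share, with CHR letters in 15 of 23 matched genes (65.2%), against 1 of 17 partners of transport kinesins and none of 18 dynein and dynactin genes. A match describes letters, not a bound site.

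**Figure D1:**
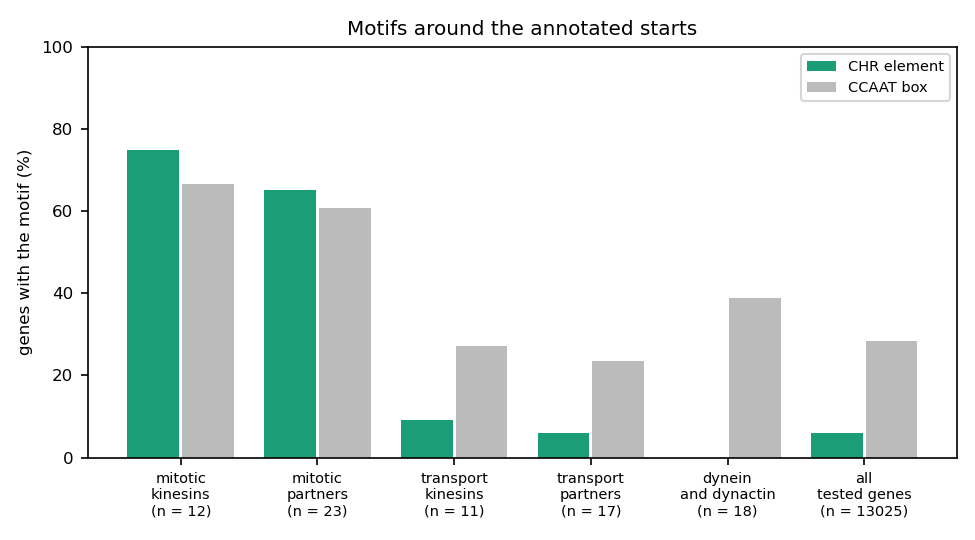
Share of genes (%, bars from 0) whose window of 150 bases around the annotated start holds the CHR letters or the CCAAT letters, for mitotic and transport kinesins, the partner lists, dynein and dynactin, and all tested genes, with the number matched. The CHR bars stand at 75% and 65.2% for the mitotic kinesins and their partners, and at 9.09% or lower in the other sets drawn.

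The most widespread difference among the kinesin mRNAs was between polysome and total mRNA. In DMSO, 23 of 39 members were lower in polysome mRNA by limma's adjusted p, where 20.9% of all genes tested were lower, and 1 was higher, where 20.3% of all genes were. The median log2 fold of polysome against total mRNA was -0.58 over the kinesins and -0.04 over all genes tested. With Torin1, 25 members were lower (19.4% of all genes) and 1 was higher (20.3%), with a median of -0.51 against -0.02. All 23 members lower in DMSO were among the 25 lower with Torin1, which is 92% of the latter. The same share over all genes was not computed. The libraries of these comparisons are separate, but the fit shares 1 estimate of spread per gene over the 12 libraries. With only the compared groups fitted, 25 members were lower and 1 higher in DMSO, and 19 lower and 0 higher with Torin1. Over all genes 8757 and 6667 were then called, against 8336 and 8032 in the main fit. Values scaled to the column total alone shift the median of all genes by -0.32 in DMSO, and then 28 kinesins were lower and none higher there, with 6708 genes lower and 1853 higher in all (4231 and 4105 in the scaling used here).

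Mitotic and transport kinesins were both low on polysomes. Among mitotic kinesins 7 of 13 were lower in DMSO (median -0.58) and 8 with Torin1 (median -0.43), and among transport kinesins 11 of 17 (median -0.63) and 12 (median -0.52). All 3 of the others, Kif2a, Kif26a and Kif26b, were lower in both, and so were Kif7 and Kif24 of the 6 cilium kinesins. The remaining 4 of these, Kif6, Kif9, Kif19a and Kif27, had means of at most 0.676 ppm over the libraries and gave no call in any comparison.

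The spread within the mitotic group was wide. Kif20b, which acts in cytokinesis and is needed for normal cortical growth, had the lowest fold of all members, -2.19 ± 0.32 (SE) in DMSO and -1.80 ± 0.32 with Torin1, at low levels of 1.58 to 5.23 ppm on polysomes. Kif14, a cytokinesis motor, followed at -1.45 ± 0.16. Kif15, which helps keep spindle poles apart, stood at 28.8, 29.7 and 33.2 ppm in total DMSO and at 16.8, 10.4 and 9.02 ppm in polysome DMSO. No polysome library of Kif15 reached the lowest total one, and its fold was -1.39 ± 0.23 (limma adjusted p = 0.00039). Its Torin1 pair gave 24.2, 29.0 and 30.3 ppm in total and 12.6, 17.9 and 22.6 ppm in polysome mRNA, a fold of -0.69 ± 0.23 (limma adjusted p = 0.0325) that was lost in 7 of 17 alternatives, for example without polysome Torin1 replicate 1 (adjusted p = 0.154) and with the replicate block (0.0524).

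Kif11, the motor that pushes the spindle poles apart, was likewise low on polysomes. It measured 34.5, 34.1 and 34.5 ppm in total DMSO and 18.8, 18.1 and 16.1 ppm in polysome DMSO, a fold of -0.96 ± 0.13 (limma adjusted p = 8.25e-05). With Torin1 it was at 39.5, 37.6 and 36.9 ppm in total and 16.2, 23.7 and 24.1 ppm in polysome mRNA, a fold of -0.86 ± 0.13. Kif4, a chromosome-bound motor that shapes the central spindle, read 19.3, 21.2 and 20.5 ppm in total DMSO against 9.92, 8.38 and 9.25 ppm on polysomes, and 18.3, 21.0 and 20.0 ppm against 8.55, 11.5 and 10.3 ppm with Torin1. The folds of Kif4 were -1.14 ± 0.11 and -0.97 ± 0.11, and in neither treatment did the fractions overlap. Kif23, a subunit of the centralspindlin complex of cytokinesis, was at 49.5, 48.8 and 48.1 ppm in total DMSO and 32.4, 36.5 and 29.3 ppm on polysomes (-0.58 ± 0.11, limma adjusted p = 0.000924).

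Other mitotic motors were close to 0 in this comparison and gave no call in DMSO. Kif22, a chromosome-bound motor, was at 50.5, 46.6 and 49.6 ppm in total DMSO and 51.9, 52.1 and 50.8 ppm in polysome DMSO, a fold of 0.08 ± 0.08 that did not pass the test. With Torin1 its values of 51.5, 48.5 and 49.8 ppm in total and 58.6, 52.2 and 47.3 ppm in polysome mRNA overlapped. Kif20a, a cytokinesis motor of the central spindle, measured 24.2, 25.8 and 24.6 ppm in total DMSO and 25.9, 26.5 and 26.4 ppm in polysome DMSO, a fold of 0.08 ± 0.08 without a call. It was the 1 member higher on polysomes with Torin1, at 28.1, 34.9 and 32.4 ppm against 26.2, 25.5 and 27.0 ppm in total mRNA (0.27 ± 0.08, limma adjusted p = 0.016). That call was lost in 6 of 17 alternatives, among them without polysome Torin1 replicate 2 (adjusted p = 0.0629), without total Torin1 replicate 2 (0.0566) and with column totals alone (0.252). Kifc1 and Kif2c, the latter an enzyme that disassembles microtubule ends, had folds of -0.04 ± 0.08 and -0.13 ± 0.09 in DMSO, and neither passed.

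Among transport kinesins the lowest folds were those of Kif21a, Kif5b and Kif1b, with Kif5b at -1.23 ± 0.09 in DMSO and -1.12 ± 0.09 with Torin1. Kif21a, a kinesin that slows microtubule growth, was at 42.4, 39.7 and 40.5 ppm in total DMSO and 17.6, 16.7 and 16.7 ppm in polysome DMSO, a fold of -1.26 ± 0.11 (limma adjusted p = 3.06e-06). Kif1b, a carrier of mitochondria and synaptic vesicle precursors, was at 118, 109 and 121 ppm against 46.5, 57.0 and 48.6 ppm (-1.20 ± 0.11), and with Torin1 at 107, 125 and 111 ppm against 45.4, 57.4 and 43.5 ppm (-1.23 ± 0.11). For both genes every polysome library was below every total library of its treatment, and with Torin1 Kif21a read 42.6, 46.6 and 44.0 ppm in total and 17.3, 24.3 and 22 ppm in polysome mRNA. Kif21b, its close relative in neurons, was less far from 0, at 171, 153 and 160 ppm in total DMSO and 99.5, 111 and 102 ppm on polysomes (-0.63 ± 0.10), and at 150, 156 and 156 ppm and 106, 106 and 80.0 ppm with Torin1 (-0.68 ± 0.10).

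The transport group had its exceptions. Kifc3, a motor that walks to microtubule minus ends, was the 1 member higher on polysomes in DMSO, with 17.2, 18.6 and 20.6 ppm there and 11, 12.4 and 12.4 ppm in total mRNA (0.65 ± 0.16, limma adjusted p = 0.00551). Its fold with Torin1 was 0.30 ± 0.16 and did not pass. Kif3c had a fold of 0.00 ± 0.07 in DMSO, and Kif1c one of -0.01 ± 0.11.

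**Figure D2:**
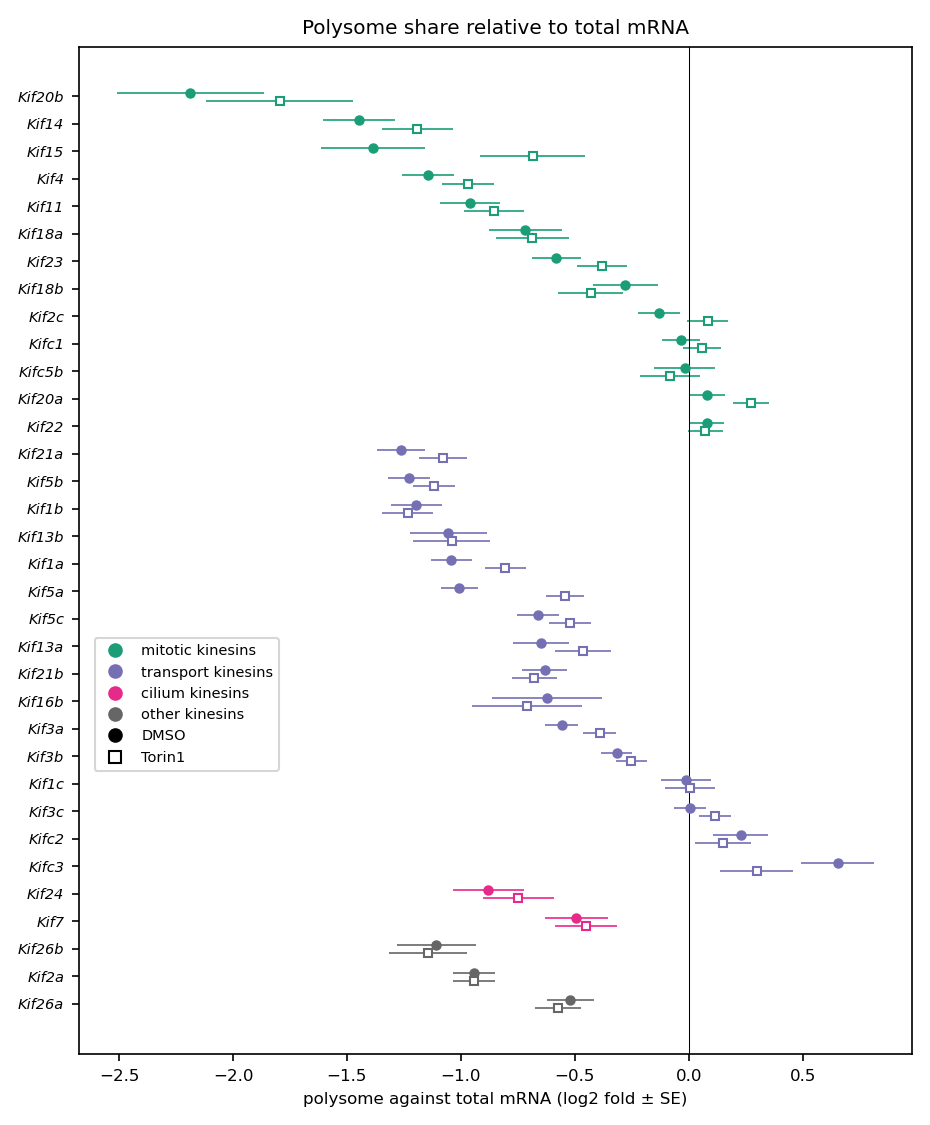
Log2 fold of polysome against total mRNA (horizontal axis, with SE) for the 34 members with a mean of at least 1 ppm, with DMSO as filled circles and Torin1 as open squares, coloured by role. Most members lie left of 0 in both treatments, and Kif20b is farthest at -2.19 and -1.80.

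The span of the gene moved with its polysome fold. Over the 25 kinesins with a mean of at least 8 ppm, Spearman's rho between RefSeq gene span (GRCm38.p6) and the polysome fold in DMSO was -0.588, and over 9051 genes at that level it was -0.546. These are correlations across genes of the same libraries, which are not independent replicates. Cut into quartiles of span over those 9051 genes, the median fold went from 0.55 in the shortest to 0.24, -0.03 and -0.39 in the longest, with 7.95%, 14.7%, 31.6% and 57.1% of genes lower on polysomes. Kinesins were lower in 0 of 1, 0 of 4, 8 of 10 and 9 of 10 cases in the same quartiles. The members not lower in the longer quartiles were Kif3c and Kif1c in the third and Kifc3 in the fourth. Span includes introns and is not mRNA length, and its part in the difference was not tested.

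Some kinesins of near-equal span are given as examples. They include Kif3c and Kifc3, which are among the exceptions named above, so they do not stand for the group. Kif5a spans 40654 bases (chr10:127225695-127266348) and Kif3c 41363 bases (chr12:3365132-3406494), and their DMSO folds were -1.01 ± 0.08 and 0.00 ± 0.07. Kif3b, at 41996 bases (chr2:153291395-153333390), lay between them at -0.32 ± 0.07. Kifc3 spans 102999 bases and Kif4 101207 bases, with folds of 0.65 and -1.14.

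**Figure D3:**
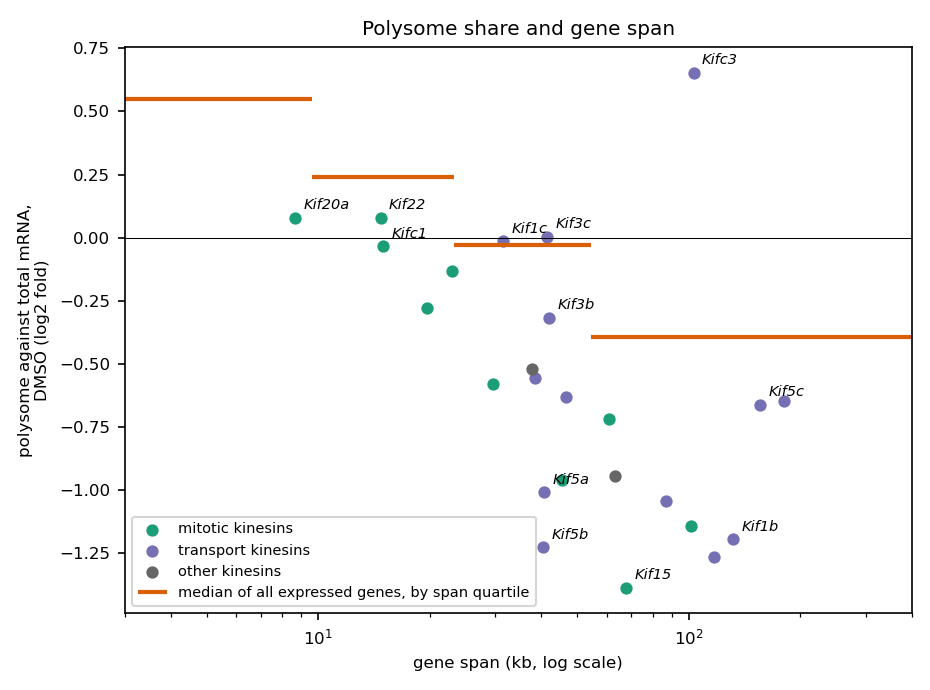
Polysome against total mRNA in DMSO (log2 fold, vertical) against gene span (kb, log scale) for the 25 kinesins with a mean of at least 8 ppm, with the median of all genes in each span quartile as orange bars. The bars step down from 0.55 to -0.39, and Kifc3 at 0.65 lies above the bar of its quartile.

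Torin1 left most kinesin mRNAs without a call in total mRNA. By limma 1 of 39 rose, Kif5a, where 3.08% of all genes rose, and 2 fell, Kif1c and Kif3b, where 4.56% of all genes fell, so the kinesin counts were near the background. No mitotic kinesin of 13 was called (1 at an unadjusted p under 0.05, Kifc1), and their median fold was 0.08, against -0.03 in the 17 transport kinesins and -0.01 over all genes. With upper-quartile scaling the transport median turned to 0.03, where the median of all genes was 0.04. Without total DMSO replicate 1, total Torin1 replicate 2 or total Torin1 replicate 3, only 1 member was called, Kif1c. Among all genes 739, 791 and 783 were called in these fits, against 1546 in the main fit.

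In polysome mRNA 3 of 39 members rose with Torin1, Kif5a, Kifc1 and Kif1a, where 4.74% of all genes rose, and 2 fell, again Kif1c and Kif3b, where 5.39% fell. All 3 members called in total mRNA were called in the same direction here. Both fractions come from the same lysates and share 1 estimate of spread per gene, so these calls are not independent. The share of all genes called in both was not computed. Without polysome Torin1 replicate 1, 10 members were called (7 higher and 3 lower), and 3 were called without polysome DMSO replicate 2, polysome DMSO replicate 3 or polysome Torin1 replicate 2. Among all genes 2549 were called in the first of these fits and 1667, 1280 and 1495 in the others, against 2050 in the main fit. The mitotic median was 0.27, with 12 of 13 folds above 0 and 1 past the test, and the transport median was 0.06, against 0.00 over all genes. Scaling by column total alone shifted the median of all genes by 0.22, and 12 kinesins then rose and none fell, with 2911 genes higher and 329 lower overall (959 and 1091 in the scaling used here). Under that scaling the mitotic median was 0.51 and the transport median 0.30, where all genes had a median of 0.23.

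Kif5a, a heavy chain of the kinesin-1 motor that is made mainly in neurons, had the largest change of the called members on polysomes. Its total mRNA was at 40.1, 43.3 and 42.3 ppm with DMSO (41.9 ± 1.60, SD, n = 3) and at 51.3, 55.9 and 56.7 ppm with Torin1 (54.7 ± 2.90, SD, n = 3). Its polysome mRNA was at 20.4, 22.1 and 20.0 ppm with DMSO and at 39.2, 40.1 and 33.4 ppm with Torin1. In both fractions the Torin1 libraries were all above the DMSO libraries. The fold was 0.38 ± 0.08 in total mRNA (limma adjusted p = 0.0153) and 0.85 ± 0.08 in polysome mRNA (limma adjusted p = 7.34e-05). The polysome call held in all 17 alternatives run, with adjusted p no higher than 0.0245. The total call was lost in 7 of 17, among them without total DMSO replicate 1 (0.0698), without total Torin1 replicate 2 (0.0604) or replicate 3 (0.067), and with column totals alone (0.126).

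The larger change of Kif5a on polysomes was not established. The difference of the folds, polysome minus total, was 0.46 ± 0.12 with an unadjusted p of 0.00178 and a limma adjusted p of 0.175, and it passed only without polysome Torin1 replicate 3 (0.55, adjusted p = 0.014). The other heavy chains of kinesin-1 gave no call, and the difference between members of a family was not tested here or below. Kif5b, the ubiquitous one, was at 67.4, 65.5 and 68.4 ppm in total DMSO and 57.1, 56.9 and 51.8 ppm in total Torin1 (-0.28 ± 0.09, limma adjusted p = 0.091), and at 30.3, 27.8 and 27.9 ppm and 21.7, 27.1 and 27.9 ppm on polysomes (-0.17 ± 0.09, adjusted p = 0.283). Kif5c, a neuronal heavy chain, overlapped between treatments in both fractions, at 182, 165 and 169 ppm and 168, 185 and 164 ppm in total mRNA (0.00 ± 0.09) and at 104, 123 and 101 ppm and 110, 133 and 118 ppm on polysomes (0.14 ± 0.09). Neuron markers as a list had 0 of 8 members called in total mRNA (limma, 1 at an unadjusted p under 0.05) and 1 of 8 on polysomes (Syt1, 0.29). Their summed level was 2870 to 2940 ppm in total DMSO, 2970 to 3060 ppm in total Torin1, 3120 to 3240 ppm in polysome DMSO and 3030 to 3410 ppm in polysome Torin1. The neuron sums did not overlap between treatments in total mRNA but did on polysomes. The sums of 4 other marker lists were higher with Torin1. The interneuron sum was 182 to 191 ppm in total DMSO and 214 to 224 ppm in total Torin1. On polysomes it was 155 to 169 ppm and 178 to 206 ppm, with 1 of 5 members called in each fraction (Dlx5). In total mRNA the oligodendrocyte lineage sum went from 96.4 to 104 ppm with DMSO to 113 to 129 ppm with Torin1, the endothelial sum from 9.98 to 10.4 ppm to 14.0 to 14.6 ppm, and the mural and meningeal sum from 24.4 to 27.6 ppm to 34.6 to 41.4 ppm. On polysomes these sums were 125 to 129 ppm and 134 to 167 ppm, 13.6 to 17.2 ppm and 19.7 to 23.1 ppm, and 25.1 to 29.7 ppm and 34.4 to 50.1 ppm, so none of the 4 lists overlapped between treatments in either fraction. The members of these 3 lists called higher were 1 of 4 (Olig2), 1 of 5 (Cldn5) and 2 of 5 (Col1a1 and Col1a2) in each fraction. Of all genes, 3.08% were called higher in total mRNA and 4.74% on polysomes. Pdgfrb (total -0.17, polysome -0.19) and Tek (-0.19 and -0.48) had negative folds without a call. Pecam1 (total 0.39, polysome -0.11) and Cspg4 (0.43 and -0.05) had negative folds on polysomes only, also without a call. Most of the endothelial rise on polysomes lay in Cldn5, with means of 9.81 and 15.1 ppm, where the sum had means of 15.1 and 20.9 ppm. The erythroid sum was 1220 to 1300 ppm in total DMSO and 1320 to 1530 ppm in total Torin1, and overlapped on polysomes. The microglial sum overlapped in both fractions, at 7.71 to 10.2 ppm and 8.21 to 10.3 ppm in total mRNA. The part of cell composition in the Kif5a change was not tested.

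Kif1c, a vesicle motor related to Kif1a and Kif1b, fell in both fractions. It was at 16.1, 16.0 and 16.8 ppm in total DMSO and 10.8, 10.6 and 11.3 ppm in total Torin1, and at 16.7, 15.8 and 15.9 ppm and 12.1, 12.1 and 8.94 ppm on polysomes. The groups did not overlap in either fraction, and the folds were -0.58 ± 0.11 (limma adjusted p = 0.00921) and -0.56 ± 0.11 (limma adjusted p = 0.0076). Both calls held when any single library was left out. Both were lost without replicate number 1 (adjusted p = 0.125 in total and 0.0605 in polysome mRNA) or 2 (0.146 and 0.08) in all groups. The polysome call was also lost without replicate number 3 (0.0516), with only the compared groups fitted (0.104) and with column totals alone (-0.32, adjusted p = 0.174).

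Kif3b, a subunit of the kinesin-2 motor of axons and cilia, fell less. Its total mRNA read 29.5, 28.5 and 28.5 ppm with DMSO and 23.5, 23.0 and 22.8 ppm with Torin1 (-0.32 ± 0.07, limma adjusted p = 0.0139), and its polysome mRNA 22.5, 24.7 and 22.3 ppm and 18.6, 19.8 and 19.8 ppm (-0.25 ± 0.07, limma adjusted p = 0.0318). All Torin1 libraries were below all DMSO libraries. The total call was lost in 7 of 17 alternatives, among them without total DMSO replicate 1 (0.0648), total Torin1 replicate 2 (0.0536) or replicate 3 (0.0578), and with column totals alone (0.0819). The polysome call was lost in 8 of 17, among them without polysome DMSO replicate 2 (0.111) or polysome Torin1 replicate 2 (0.0545). It was also lost with only the compared groups fitted (0.132) and with the replicate block (0.0541), and with column totals alone the polysome fold was -0.01. The other motor subunits of kinesin-2 were not called: Kif3a was at 60.0, 60.0 and 60.3 ppm in total DMSO and 59.0, 56.3 and 59.0 ppm in total Torin1 (-0.05 ± 0.07), and at 43.4, 39.3 and 39.8 ppm and 42.8, 41.4 and 49.1 ppm on polysomes (0.12 ± 0.07). Kif3c had folds of -0.01 ± 0.07 and 0.10 ± 0.07.

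Since mTOR is known to control translation of mRNAs that begin with a run of pyrimidines, the starts listed for both falling mRNAs in the RefSeq promoter table are shown with the first 5 bases from that start in capitals and the 20 bases before it. The listed start lies 152 bases inside the annotated gene for Kif1c and 21 bases inside it for Kif3b, so other transcripts of both genes start further upstream.
Kif1c (chr11:70700528-70700557, plus strand): gcgccggccgctggcgccgcTTCTGctgcc
Kif3b (chr2:153291396-153291425, plus strand): agccgggttgctaaggaagtGAGCGccgcg

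Neither begins with C and 4 further pyrimidines. That start was in none of the 31 matched kinesins, in 3.1% of tested genes and in 13 of 56 genes named as ribosomal proteins (23.2%). Annotated starts can differ from the starts used in these cells.

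Kifc1, a spindle pole motor that walks to minus ends, was the mitotic kinesin that passed the test on polysomes. It was at 23.0, 22.2 and 22.3 ppm with DMSO and 30.2, 30.8 and 26.2 ppm with Torin1 there (0.37 ± 0.08, limma adjusted p = 0.0164), and at 23.1, 22.4 and 23.7 ppm and 25.3, 30.1 and 28.4 ppm in total mRNA (0.27 ± 0.08, adjusted p = 0.073). All Torin1 libraries were above all DMSO libraries in both fractions. The polysome call of Kifc1 was lost in 6 of 17 alternatives. Among these were the fits without polysome DMSO replicate 3 (0.0642), without polysome Torin1 replicate 2 (0.0598) and with only the compared groups (0.0838). Its near-identical copy Kifc5b had folds of 0.09 ± 0.13 on polysomes and 0.16 ± 0.13 in total mRNA.

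Kif1a, a neuronal carrier of synaptic vesicle precursors, was at 55.8, 57.8 and 54.4 ppm in polysome DMSO and 75.3, 76.8 and 59.4 ppm in polysome Torin1 (0.32 ± 0.09, limma adjusted p = 0.0437). The groups did not overlap, but the call was the weakest of the 5 and was lost in 10 of 17 alternatives, among them without any of 5 of the 6 polysome libraries (adjusted p from 0.0714 to 0.141). In total mRNA it read 118, 111 and 117 ppm and 114, 128 and 125 ppm (0.09 ± 0.09). Its relatives did not follow, with a polysome fold of -0.06 ± 0.11 for Kif1b and of -0.56 for Kif1c.

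**Figure D4:**
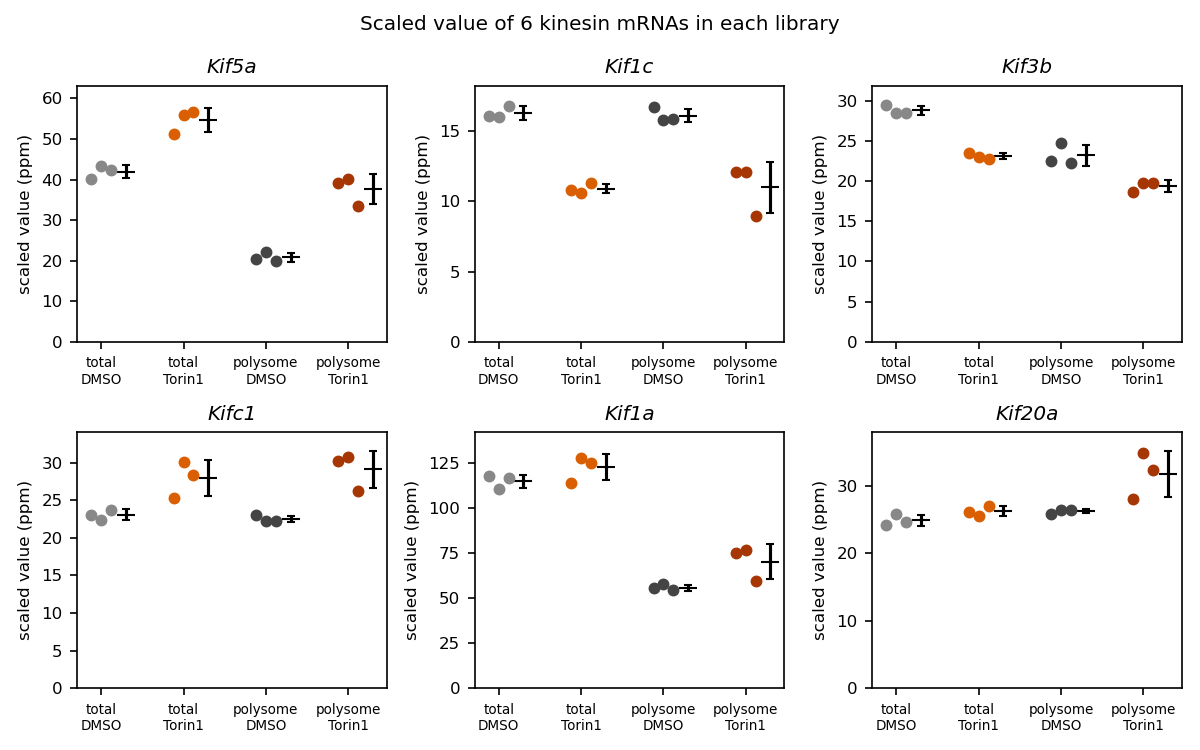
Scaled value (ppm, axis from 0) of Kif5a, Kif1c, Kif3b, Kifc1, Kif1a and Kif20a in each of the 12 libraries, as points, with mean and SD of the 3 replicates beside them. Kif5a is higher and Kif1c and Kif3b are lower with Torin1 in both fractions, without overlap, and Kif1a is far lower on polysomes than in total mRNA.

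Several mitotic kinesins and the transport kinesin Kif21a lay close to the threshold for Torin1 on polysomes. Kif20a had a fold of 0.27 ± 0.08 (limma adjusted p = 0.0509), Kif2c 0.29 ± 0.09 (0.0685) and Kif14 0.45 ± 0.16 (0.0982). Kif21a had one of 0.31 ± 0.11 (0.0923) and passed without polysome Torin1 replicate 1 (0.00302). Kif20a overlapped in total mRNA between the treatments but not on polysomes, and it passed without polysome Torin1 replicate 1 (adjusted p = 0.00638). Kif11 (0.25 ± 0.13, adjusted p = 0.271) and Kif15 (0.56 ± 0.23, 0.157) lay further from the threshold. Both passed without that library too (0.00512 and 0.048), and Kif15 also without polysome DMSO replicate 1 (0.0418). Kif23, at 40.6, 38 and 40.6 ppm with Torin1 on polysomes against 32.4, 36.5 and 29.3 ppm with DMSO, did not overlap (0.28 ± 0.11, adjusted p = 0.128), but in total mRNA its Torin1 libraries scattered at 55.8, 43.0 and 57.8 ppm. Kif15 had the largest difference between the fractions, 0.70 ± 0.33, and it did not pass (adjusted p = 0.844).

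Summed over the group, mitotic kinesins were at 308 to 318 ppm in total DMSO and 326 to 338 ppm in total Torin1, and at 220 to 239 ppm and 259 to 281 ppm on polysomes. Transport kinesins were at 927 to 987 ppm and 922 to 982 ppm in total mRNA, and at 586 to 639 ppm and 587 to 681 ppm on polysomes. The mitotic sums did not overlap between treatments and the transport sums did. The ratio of the mitotic to the transport sum does not depend on scaling. It was 0.316 to 0.332 and 0.331 to 0.358 in total mRNA, and 0.364 to 0.407 and 0.402 to 0.456 on polysomes, so it overlapped between treatments in both fractions, but not between total and polysome mRNA of either treatment. Of 8 progenitor markers, 3 were called higher in each fraction, where 3.08% of all genes were in total mRNA and 4.74% on polysomes. Fabp7 had negative folds in both (-0.14 ± 0.21 and -0.23 ± 0.21), without a call. The progenitor sum was 3450 to 3540 ppm in total DMSO and 3900 to 3980 ppm in total Torin1. On polysomes it overlapped, at 4940 to 6020 ppm with DMSO and 4500 to 6940 ppm with Torin1. Vim and Fabp7 hold most of this sum, so it mainly follows these genes and not the whole list. From DMSO to Torin1 the mean of Vim went from 1140 to 1700 ppm in total and from 1070 to 1330 ppm in polysome mRNA. That of Fabp7 went from 2050 to 1860 ppm and from 4260 to 3780 ppm. The part of the progenitor markers in the mitotic sums was not tested.

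In the comparison of the changes themselves, polysome minus total, limma called 0 of 39 kinesins (1 at an unadjusted p under 0.05, Kif5a). Over all genes 0.0198% were called higher and 0.677% lower. The median difference was 0.17 for mitotic kinesins, 0.07 for transport kinesins and 0.04 for all genes. The mitotic value was 0.08 without polysome Torin1 replicate 2 and 0.09 without polysome DMSO replicate 3, and the transport value ranged from 0.002 without polysome DMSO replicate 3 to 0.136 without polysome Torin1 replicate 3.

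**Figure D5:**
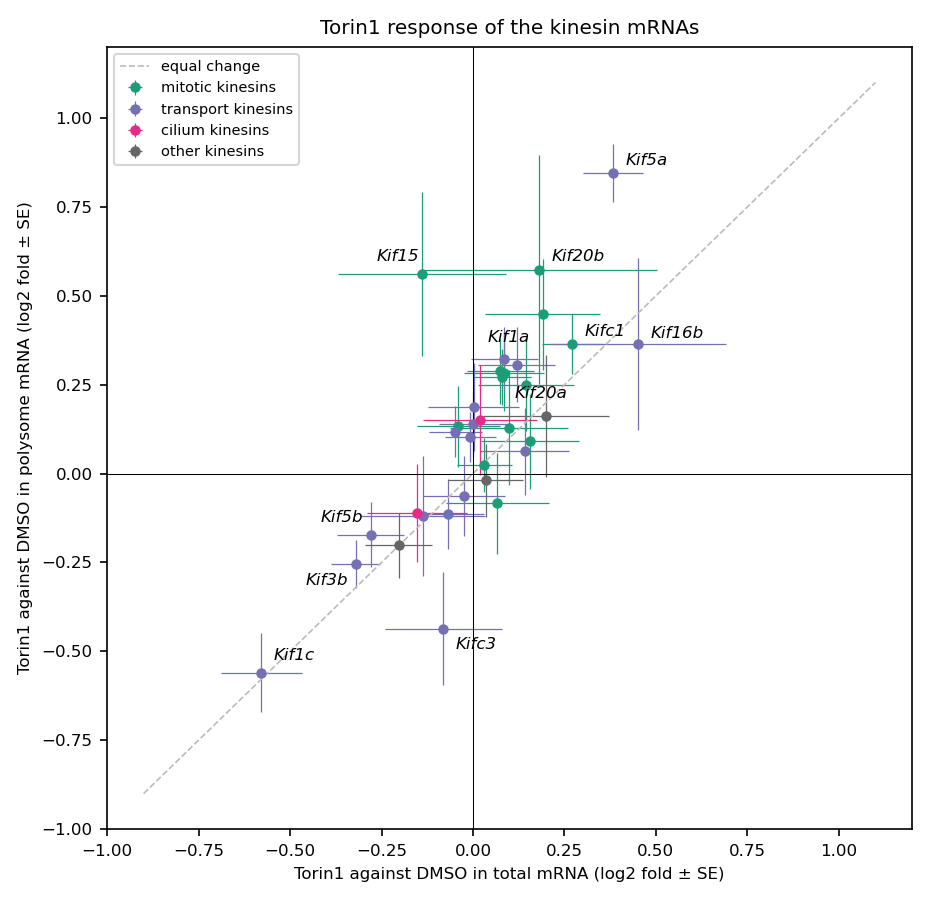
Log2 fold of Torin1 against DMSO in polysome mRNA (vertical, with SE) against that in total mRNA (horizontal, with SE) for the 34 members with a mean of at least 1 ppm, coloured by role, with a dashed line of equal change. Kif5a lies at 0.38 and 0.85, above the line, and Kif1c at -0.58 and -0.56, close to it.

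Neither Kif2a nor Kif7 was called for Torin1, though Kif2a passed on polysomes without polysome Torin1 replicate 2 (-0.31, adjusted p = 0.0377) and in total mRNA when only the compared groups were fitted (adjusted p = 0.0263). Kif2a, which disassembles microtubule ends in axons and spindles, was at 66.1, 62.3 and 66.6 ppm in total DMSO and 54.9, 57.6 and 56.8 ppm in total Torin1 (-0.20 ± 0.09, limma adjusted p = 0.229). On polysomes it was at 36.4, 33.8 and 31.4 ppm and 26.1, 34.1 and 28.5 ppm, which overlapped, and its polysome folds against total mRNA were -0.94 ± 0.09 in each treatment. Kif7, which relays hedgehog signals at the tip of the cilium, was at 6.01, 5.95 and 5.30 ppm in total DMSO, 5.12, 5.31 and 5.05 ppm in total Torin1, 4.15, 4.28 and 3.79 ppm in polysome DMSO and 3.95, 4.23 and 3.18 ppm in polysome Torin1. Its Torin1 folds of -0.15 ± 0.14 and -0.11 ± 0.14 gave no call. The call for its polysome fold of -0.49 ± 0.14 in DMSO was lost in 3 of 17 alternatives, among them without polysome DMSO replicate 3 (adjusted p = 0.0649).

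Genes that work with the kinesins were counted from lists in the same way. Of 26 mitotic partners, limma called 1 higher (Ndc80, a kinetochore protein, 0.47 ± 0.11) and 1 lower (Aurka, a mitotic kinase, -0.26 ± 0.07) with Torin1 in total mRNA, where 3.08% and 4.56% of all genes were called. On polysomes 3 were higher and none lower (4.74% and 5.39% of all genes), led by Cenpe (1.13 ± 0.18), the kinetochore kinesin whose symbol is outside the naming rule, and Top2a (0.75 ± 0.12), which untangles chromosomes. In DMSO 8 partners were higher and 8 lower on polysomes than in total mRNA (20.3% and 20.9% of all genes), with the lowest folds for Cenpe (-2.35 ± 0.18) and the proliferation marker Mki67 (-2.28 ± 0.14), and the median was 0.01. The mitotic kinesins had a median of -0.58 there, and the difference between the lists was not tested.

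Of 21 transport partners, 2 fell with Torin1 in total mRNA, Map7d1 (-0.52 ± 0.11), a microtubule protein that recruits kinesin-1, and the light chain Klc2 (-0.46 ± 0.09). On polysomes Map7d1 (-0.58 ± 0.11) and the mitochondrial adaptor Trak2 (-0.44 ± 0.11) fell, and Kifap3 (0.27 ± 0.08), the accessory subunit that binds Kif3a and Kif3b, rose. On polysomes against total mRNA in DMSO, 6 were higher and 4 lower, with a median of 0.08, and the largest folds were those of Klc3 (1.05 ± 0.23) and Map7d2 (-0.68 ± 0.16). Of 23 genes of dynein and dynactin, the motor of the opposite direction and its activator, 1 rose and 2 fell in total mRNA, and 3 rose and 2 fell on polysomes. The shares of all genes given above for the mitotic partners hold for these counts and for those of the transport partners too. The heavy chain Dync1h1 rose in both (0.60 ± 0.08 and 0.52 ± 0.08), and the light chain Dynll1 fell in total mRNA (-0.61 ± 0.17). On polysomes in DMSO 10 of these genes were higher and 10 lower, with Dync1h1 at -1.79 ± 0.08 and the cargo adaptor Hook3 at -1.75 ± 0.26. In the comparison of the changes, limma called 0 genes of the 3 lists (2, 0 and 3 at an unadjusted p under 0.05 for mitotic partners, transport partners and dynein genes).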

How the data were processed

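Total and polysome mRNA were sequenced in 12 libraries, grouped by their titles into 4 groups of 3. The mm10 build and the tools HTSeq 0.6.0 and STAR 2.7.9a are listed, without role or order, per the submitters' processing notes. The deposited table holds a signal per gene, made by the authors with a scaling not given in the sources used here, and 0 other sample columns. Each deposited value is a whole multiple of a step that is a fixed share of its column (within 0.011), so counts cannot be read from it and counting intervals are left out. A pseudocount of 1 on the deposited scale corresponds to 0.0578 ppm.

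Each column was scaled by its total and then by a trimmed mean of log ratios without weights (0.3 of the ratios and 0.05 of the abundances trimmed). Mean factors were 1.09, 1.08, 0.85 and 1.01 for total DMSO, total Torin1, polysome DMSO and polysome Torin1. The log2(value + 1) of 20240 genes was fitted with limma 3.58.1 (R 4.3.3) over all libraries, with 4 group means. Adjustment was by Benjamini-Hochberg over all genes, separately for the 5 comparisons, and calls are adjusted p-values under 0.05. Folds on this scale understate changes of very low values. Members, gene lists and roles were chosen with earlier results of these data known. Values in every library are given for up to 6 called members of each comparison with the largest folds and a mean of at least 8 ppm, the mitotic and transport members with the highest means, and a fixed set (Kif11, Kif20a, Kif23, Kif2a, Kif3a, Kif5b, Kif1a, Kif7). Kifc3 was added after its values were seen. On simulated data of 20240 genes, the fit recovered 61 of 100 genes changed 1.5-fold and 95 of 100 changed 2-fold in the total comparison, 63 and 95 in the polysome comparison, and 26 and 76 in the interaction, with 11, 8 and 4 unchanged genes called. The changed genes were drawn only from those with a mean of at least 8 ppm, and the noise was normal and independent between libraries. Recovery of members below that level was not simulated.

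Starts, spans and sequences are from RefSeq tables of GRCm38.p6, matched by symbol. Alternatives changed the scaling, filter, pseudocount, samples in the fit, replicate block and the libraries included.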

Additional observations from a re-analysis of the deposited data

How the results depend on the processing

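Of 1710 single-gene values under the alternatives, 1611 kept their side of the threshold, 76 lost a call and 23 gained one. The sign changed in 88 of the 1710, none of them for a fold called in the reported analysis. Depth in reads is unknown, so limits of detection cannot be given. Scaling by column total alone gave 12 called kinesins for Torin1 on polysomes (5 in the reported analysis) and 1 in total mRNA (3). Among all genes 3240 and 841 were then called (2050 and 1546). Medians were 0.43 (mitotic) and 0.33 (transport) for the difference of changes, where all genes had 0.29. They were -0.94 and -0.996 for polysome against total mRNA in DMSO (all genes -0.37), and 0.51 and 0.30 for Torin1 on polysomes (all genes 0.23). Fitting only the compared groups gave 1 call on polysomes and 5 in total mRNA, where 446 and 2694 of all genes were called. Upper-quartile scaling moved the mitotic median in total mRNA to 0.14, and that of all genes from -0.01 to 0.04. When single libraries or replicate numbers were left out, calls ranged from 1 to 10 on polysomes, 0 to 3 in total mRNA and 0 to 1 for the difference of changes (1 without polysome Torin1 replicate 3). The calls among all genes ranged from 536 to 2714 on polysomes, 89 to 898 in total mRNA and 0 to 223 for the difference. The median of mitotic kinesins for polysome against total mRNA with Torin1 then ranged from -0.564 to -0.318, and the transport medians from -0.027 to 0.136 for the difference of changes and from -0.019 to 0.064 for Torin1 on polysomes, so both transport medians crossed 0, as did that for total mRNA (-0.066 to 0.047). Correlations of deviations between same-numbered samples ran from -0.182 to 0.201 between treatments in total and -0.277 to 0.328 in polysome mRNA, and between the fractions from -0.063 to -0.02 with DMSO and -0.02 to 0.073 with Torin1, so the numbers did not meet the rule for pairing (over 0.1 for every pair). A fit with the replicate block gave 3 calls on polysomes, 3 in total mRNA, 0 for the difference, and 24 and 25 for polysome against total mRNA in DMSO and Torin1, where the call lost was that of Kif15. Among all genes that fit called 1854, 1282, 144, 8237 and 7904 in the same order.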
